A study of Rattus norvegicus with 12 samples.

Results

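Tcf7l2, Slc17a6, Zic1, Prkcd and Pmch, 5 of the 17172 genes counted, were followed through all 12 libraries. All are used as markers of neurons in the thalamus or hypothalamus, which lie near the hippocampus and are not part of it. They were picked from their levels in these same libraries, because 1 responder library stood far above the others or because the rat lines differed. Their levels and differences are therefore given as a description: SEs and intervals show precision, and counts of calls among the 5 are no evidence for them.

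The tissue was ventral dentate gyrus of male rats, the part of the ventral hippocampus that holds the granule neurons, and there were 4 groups of 3 libraries. LAC responder rats were of the Flinders Sensitive Line (FSL), a rat line used as a model of depression, drank L-acetyl-carnitine (LAC) at 0.3% w/v in tap water for 7 days, about 210 mg/kg per day, and were called responders. LAC non-responder rats were FSL rats given the same LAC and called non-responders. FSL vehicle rats drank tap water and were not divided by response. FRL vehicle rats were of the Flinders Resistant Line (FRL), the comparison line, and also drank tap water. The strain is given as Sprague-Dawley for every sample. The sources used here give no age, no number of rats behind 1 library and no measure by which responders were told from non-responders. The design text speaks of biological replicates, and all p-values measure the spread between these samples.

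Thalamic relay neurons send sensory and motor signals to the cortex and release glutamate that is packed into vesicles mainly by VGLUT2, the product of Slc17a6. Hippocampal granule and pyramidal neurons use mainly VGLUT1, the product of Slc17a7. Tcf7l2 is an HMG-box transcription factor that acts with β-catenin in Wnt signalling and stays on in adult neurons of the thalamus and habenula. Zic1 is a zinc-finger transcription factor of several midline brain regions and, in mice, of the meninges. Prkcd, protein kinase C delta, is abundant in sensory relay nuclei of the rodent thalamus. Pmch encodes the precursor of melanin-concentrating hormone (MCH), a peptide made by neurons of the lateral hypothalamus and zona incerta that acts in feeding and sleep.

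Levels are CPM, read counts scaled to a common library size with TMM factors. A total of 3 counts, the limit that a count of 0 allows, in 1 library equal 0.368 to 0.511 CPM. Counts in genes summed to 5.91 to 8.14 M per library. Prox1 and C1ql2, which mark dentate granule neurons, were low in LAC responder 1 (9.19 and 3.31 CPM) and in FRL vehicle 2 (10.4 and 4.53 CPM), while Prox1 was 51.6 to 129 CPM in the other 10. The summed level of 14 meningeal and fibroblast markers was 116 CPM in LAC responder 2 and 3599 CPM in FSL vehicle 3, the lowest and the highest of the 12. In bulk tissue a change in the number of cells of a type and a change in RNA per cell cannot be told apart.

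The 5 genes did not move as 1 set. Tcf7l2, Slc17a6 and Pmch were highest in LAC responder 1, while Zic1 and Prkcd were highest in FSL vehicle 3 and, of the 12 libraries, lowest in LAC responder 2. This split was drawn from the highest and lowest libraries. Over the 11 libraries other than LAC responder 1, Tcf7l2 went with Prkcd (Pearson's r of log2(CPM + 0.5) 0.788) and Zic1 (0.638). With Slc17a6 and Pmch its r was 0.599 and 0.271 there. Markers of the thalamus were not all high in LAC responder 1: Prkcd stood at 18.0 CPM there, the lowest but 1 of the 12 libraries. The thalamic transcription factor Gbx2 had 1 count there, too few to set against other libraries. The plot of levels by library shows these patterns.

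**Figure D1:**
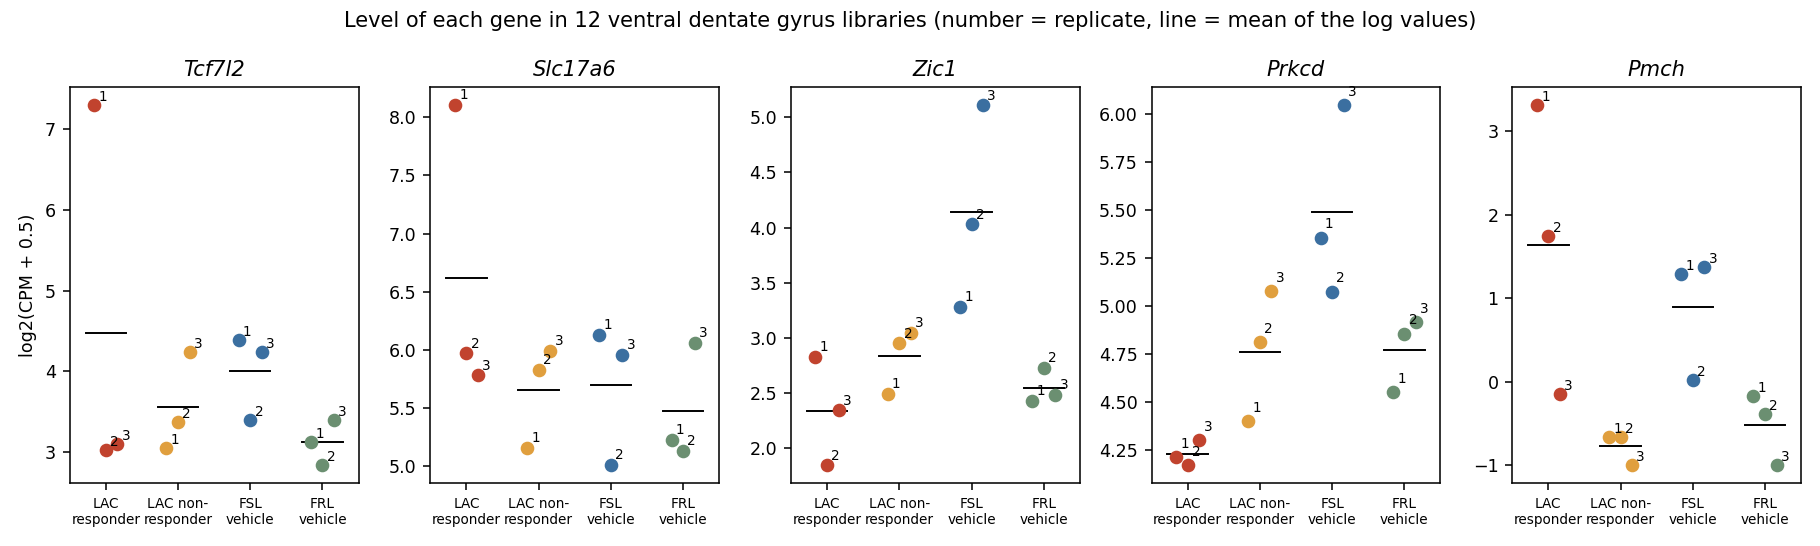
Level of Tcf7l2, Slc17a6, Zic1, Prkcd and Pmch as log2(CPM + 0.5) in each of the 12 libraries, by group, with replicate numbers beside the points and a line at the mean of the 3 log values. LAC responder 1 is the top point for Tcf7l2 (156 CPM), Slc17a6 (274 CPM) and Pmch (9.43 CPM), and FSL vehicle 3 is the top point for Zic1 (34.0 CPM) and Prkcd (65.7 CPM).

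Tcf7l2 stood at 156, 7.68 and 8.10 CPM in LAC responders 1, 2 and 3. In LAC non-responders it was 7.79, 9.89 and 18.4 CPM, in FSL vehicle 20.4, 10.1 and 18.3 CPM and in FRL vehicle 8.24, 6.67 and 10.1 CPM. LAC responder 1 was thus 7.62 times the highest other library and 15.8 times the median of the other 11, whereas the other 2 responders lay among the lowest libraries. These levels rest on 1272 counts in LAC responder 1 and 50 to 131 elsewhere. All 3 FSL vehicle libraries lay above all 3 FRL vehicle libraries, with FSL vehicle 2 (10.1 CPM) and FRL vehicle 3 (10.1 CPM) nearly level. Such a separation was seen for 7.57% of all tested genes.

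That peak was not seen in the other members of the Tcf7l2 family or in Wnt feedback genes. Tcf7l1, a relative that mostly represses Wnt targets, was 1.47 CPM in LAC responder 1, below the 1.72 to 8.68 CPM of the other 11 libraries. Lef1, the lymphoid enhancer factor, was 4.17 CPM there against 3.60 to 11.2 CPM. Axin2, a direct target and brake of Wnt signalling, was 24.3 CPM there against 21.3 to 38.1 CPM in the others. Ctnnb1, which encodes β-catenin, was 451 CPM against 346 to 497 CPM. Nkd1, Nkd2, Lgr5 and Rnf43 also lay inside the range of the other libraries. Of these 8 genes 0 passed an adjusted p of 0.05 in any of the 4 comparisons by edgeR, and DESeq2 called 0. An unadjusted p under 0.05 was seen for 3 in LAC responder against FSL vehicle, beside 13.8% of all tested genes, for 1 in FSL vehicle against FRL vehicle, beside 13.9%, and for 0 in the other 2 comparisons, beside 4.21% and 3.14%. As this list too was chosen with earlier results of these data known, nothing is read from these counts.

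Slc17a6 stood at 274, 62.2 and 54.5 CPM in LAC responders. LAC non-responders had 35.2, 56.3 and 63.3 CPM, FSL vehicle 69.5, 31.7 and 61.7 CPM and FRL vehicle 37.1, 34.7 and 66.3 CPM. LAC responder 1 was 3.95 times the highest other library, and the other 11 spread over 31.7 to 69.5 CPM with every group overlapping every other. Slc17a7, the hippocampal VGLUT1 gene, was 996 CPM in LAC responder 1 and 729 to 1406 CPM in the others. Slc17a8, the third vesicular glutamate transporter, was 2.45 CPM and 1.96 to 9.90 CPM. Both lay within the range of the other libraries, unlike Slc17a6.

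The start regions of the genes that peaked together, Tcf7l2 and Slc17a6, are shown beside that of Prkcd, which did not peak. They are RefSeq sequences of the rat assembly GRCr8, 250 bases before to 50 after the annotated start, 5′ to 3′ on the gene's strand, at chr1:264791085-264791384 (plus strand), chr1:110348197-110348496 (plus) and chr16:5805790-5806089 (minus). The counts were made on rn5. Capitals mark CTTTGAT or ATCAAAG (the TCF/LEF core), GGGCGG or CCGCCC (the GC box) and TATAAA or TTTATA (the TATA box).
Tcf7l2: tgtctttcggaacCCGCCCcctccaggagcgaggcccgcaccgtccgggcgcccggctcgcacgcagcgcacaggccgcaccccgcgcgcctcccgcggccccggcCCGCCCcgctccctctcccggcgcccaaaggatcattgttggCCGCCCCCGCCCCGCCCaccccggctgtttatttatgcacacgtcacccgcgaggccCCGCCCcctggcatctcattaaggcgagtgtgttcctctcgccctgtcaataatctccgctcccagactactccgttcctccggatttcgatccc
Slc17a6: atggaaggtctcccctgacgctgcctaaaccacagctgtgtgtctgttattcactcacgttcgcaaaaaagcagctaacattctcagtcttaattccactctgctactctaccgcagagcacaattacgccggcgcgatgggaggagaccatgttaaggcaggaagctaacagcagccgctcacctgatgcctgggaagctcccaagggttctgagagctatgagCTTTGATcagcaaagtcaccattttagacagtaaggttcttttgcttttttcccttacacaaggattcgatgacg
Prkcd: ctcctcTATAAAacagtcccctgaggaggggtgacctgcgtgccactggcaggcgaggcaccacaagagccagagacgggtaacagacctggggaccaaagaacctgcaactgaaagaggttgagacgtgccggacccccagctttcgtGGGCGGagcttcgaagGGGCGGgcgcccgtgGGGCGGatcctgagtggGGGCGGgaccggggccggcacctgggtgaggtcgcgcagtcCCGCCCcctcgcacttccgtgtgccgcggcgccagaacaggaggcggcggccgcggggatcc
The TCF/LEF core, the letters that TCF7L2 and its relatives bind, stood in the Slc17a6 window, starting 25 bases before the annotated start, and in neither of the other windows. It was in 3.63% of the 33469 rat promoters of this length. The Tcf7l2 window had 6 GC boxes, 2 of them sharing 1 base, and a GC content of 70.3%. The Prkcd window had 5 GC boxes, a TATA box 244 bases before the start and 69.0% GC, and the Slc17a6 window had neither motif and 49.0% GC. Over all promoters the median GC content was 51.7%, 33.1% held a GC box and 14.2% a TATA box. A match of letters is a description and shows no binding, and no match says only that these letters are not in this window.

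To set the peak of LAC responder 1 against all genes, a gene was said to stand apart in a library when its CPM + 0.5 was at least 3 times the highest CPM + 0.5 of the other 11. In LAC responder 1, 35 of 17172 genes (0.204%) stood apart. In FSL vehicle 3 it was 54 genes (0.314%), in LAC non-responder 1 it was 3 (0.0175%), in FSL vehicle 2 it was 1 (0.00582%) and in the other 8 libraries 0. Of the 5 markers, Tcf7l2 (7.46-fold on this scale) and Slc17a6 (3.93-fold) stood apart in LAC responder 1. Foxp2, at 3.02-fold, was the last gene inside the limit and Pmch, at 2.97-fold, the first outside it. Since the markers were picked for this library, nothing is read from their count.

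**Figure D2:**
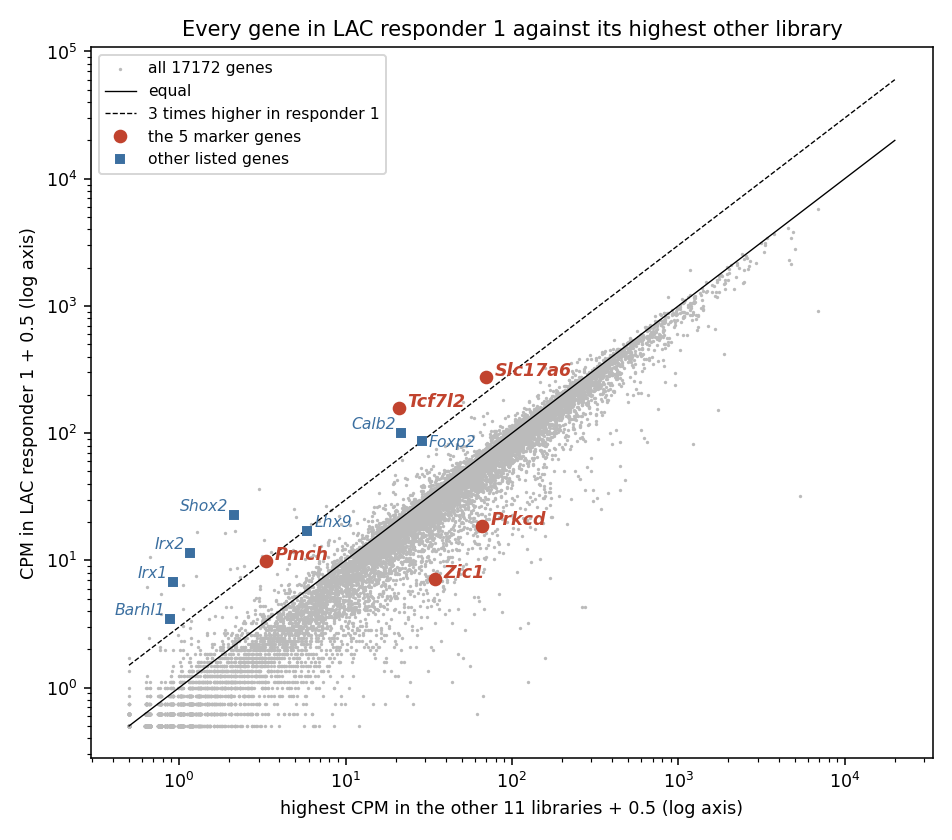
Each of 17172 genes by its CPM + 0.5 in LAC responder 1 (vertical log axis) and its highest CPM + 0.5 in the other 11 libraries (horizontal log axis), with the 5 markers as red circles and some of the listed genes as blue squares. Tcf7l2 and Slc17a6 lie above the dashed line of 3-fold, Pmch lies just under it, and Zic1 and Prkcd lie far below the line of equal levels.

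The other genes of these brain regions were taken from 4 lists: 23 thalamic, 12 habenular, 16 hypothalamic peptide and 20 hypothalamic transcription factor genes, of which 59 were in the files. Of the 59, 6 stood apart in LAC responder 1, where 0.204% of all genes did. The lists were chosen with earlier results of these data known, so nothing is read from this count. Shox2, a homeobox gene of the thalamus, was 22.3 CPM in LAC responder 1 and 0 to 1.62 CPM elsewhere. Calb2, the calcium-binding protein calretinin, was 100.0 CPM against 12.4 to 21.1 CPM. Calb2 is also made by mossy cells of the dentate hilus, whose other 5 listed markers summed to 78.7 CPM in LAC responder 1 and 35.3 to 52.5 CPM elsewhere. Of these 5, 2 were highest in LAC responder 1, beside 12.3% of all genes with a count, and nothing is read from this count. The part of mossy cells in the Calb2 level was not tested. Foxp2, a forkhead transcription factor of thalamus and other regions, was 86.5 CPM against 3.51 to 28.3 CPM. The homeobox genes Irx1 and Irx2, listed for the habenula, were 6.25 and 10.9 CPM there, and no other library exceeded 0.420 CPM of Irx1 or 0.659 CPM of Irx2. Barhl1, a homeobox gene of the mammillary region, had 24 counts (2.94 CPM), against at most 0.386 CPM.

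Of the 59 listed genes, 54 had a count in some library. Of these 54, 19 (35.2%) were highest in LAC responder 1, beside 12.3% of all genes with a count. Nothing is read from this share, as the lists were chosen with earlier results of these data known. Of the 59, 21 stayed under 1 CPM in every library. Ntng1, an axon guidance gene of thalamic neurons, was 76.0 CPM in LAC responder 1 and 69.3 to 179 CPM in the others. Cacna1g, the T-type calcium channel behind thalamic bursts, was 119 CPM against 80.4 to 149 CPM. Adarb1, an RNA-editing enzyme, was highest there (428 CPM against 238 to 359 CPM). Lhx2, a LIM homeobox gene that the cortex and hippocampus also use, was lowest there (36.6 CPM against 45.9 to 65.9 CPM). Lhx9, its thalamic relative, was 16.4 CPM against 0.400 to 5.40 CPM. Of the other habenular genes, Lrrc55 (12.4 CPM), Wif1 (5.88 CPM), Chrnb3 (2.33 CPM) and Gng8 (3.06 CPM) lay inside the range of the other libraries. Gpr151, a receptor that marks the habenula, reached at most 0.162 CPM and was 0 in LAC responder 1.

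The thalamic list without the 5 markers summed to 689 to 958 CPM in LAC responders, 691 to 697 CPM in LAC non-responders, 736 to 788 CPM in FSL vehicle and 690.1 to 708 CPM in FRL vehicle. LAC responder 1 held the highest sum and another responder the lowest. No listed gene passed the threshold in any comparison: 0 of 27 tested genes had an adjusted p under 0.05 by edgeR in each of the 4 comparisons, and an unadjusted p under 0.05 was seen for 12, 3, 6 and 4 of them in LAC responder against FSL vehicle, LAC non-responder against FSL vehicle, FSL vehicle against FRL vehicle and LAC responder against LAC non-responder. Over all tested genes those unadjusted shares were 13.8%, 4.21%, 13.9% and 3.14%. DESeq2 gave 26 of the 27 an adjusted p and called 3, 0, 1 and 0 of them, beside 1.54%, 0.017%, 1.43% and 0% of all genes, namely Zic2, Zic5 and Adarb1 in the first comparison and Synpo2 in the line comparison. Over all 11750 tested genes the shares past the adjusted threshold in edgeR were 0.0%, 0.0%, 0.0681% and 0.0%. The median log2 fold change of the 27 was -0.36, -0.38, 0.35 and -0.04 in that order, beside 0.0115, -0.00394, -0.00829 and 9.72e-04 over all tested genes. As the lists were chosen with earlier results of these data known, nothing is read from these counts and medians.

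LAC responder 1 differed from other libraries in more than these genes. It had the lowest Prox1 (9.19 CPM), C1ql2 (3.31 CPM) and Trpc6 (16.5 CPM) of all libraries, while Calb1, Stxbp6 and C1ql3 lay within the range of the others. FRL vehicle 2 was nearly as low in Prox1 (10.4 CPM) and C1ql2 (4.53 CPM). Its Tcf7l2 level was 6.67 CPM, the lowest of the 12, and its Slc17a6 level 34.7 CPM. The striatal list summed to 411 CPM in LAC responder 1 against at most 322 CPM elsewhere, with Penk, which encodes enkephalin, at 135 CPM against 16.8 to 56.5 CPM. The part of the tissue mixture in the Tcf7l2 and Slc17a6 peak was not tested.

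**Figure D3:**
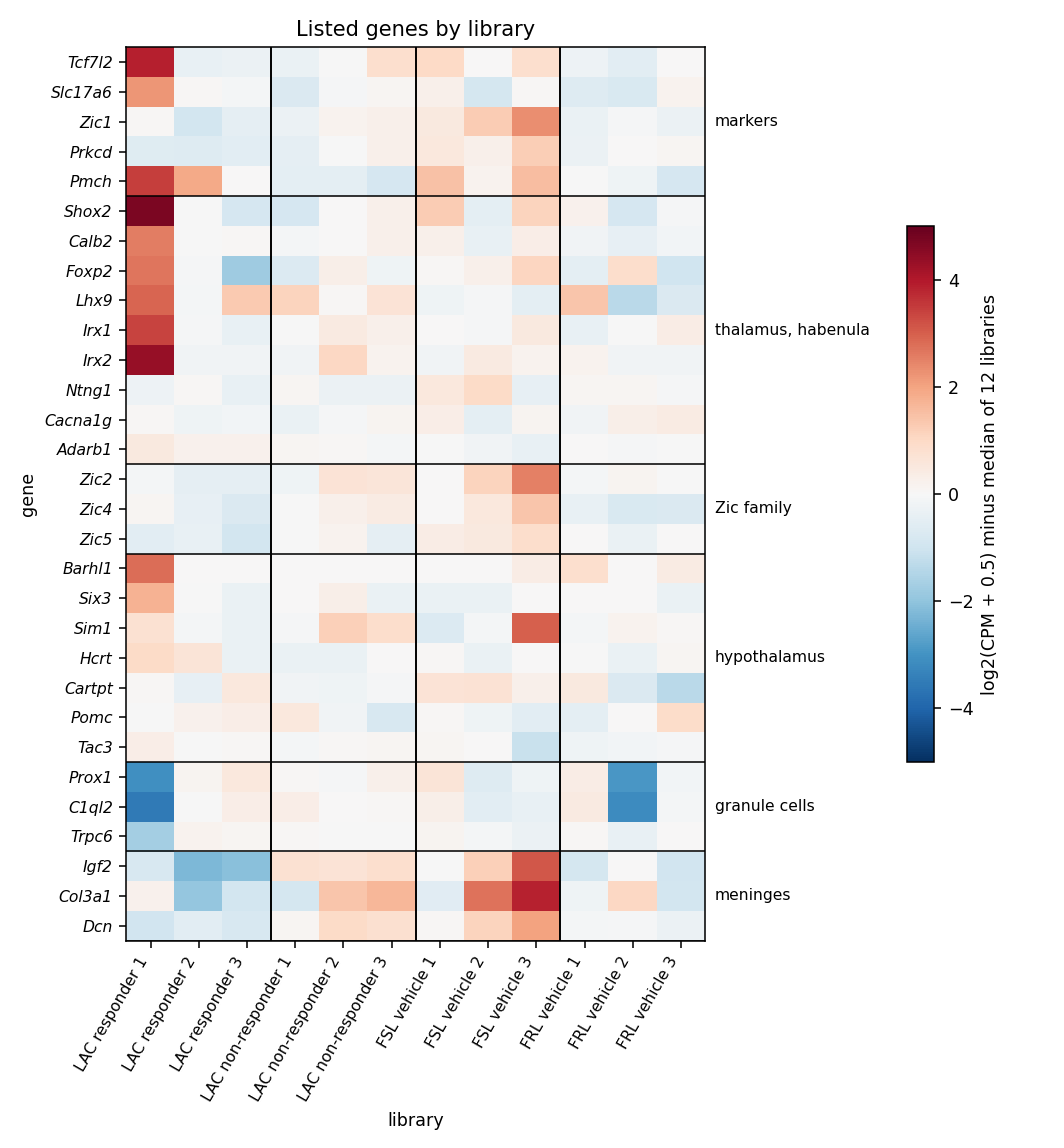
Colour gives log2(CPM + 0.5) minus the median of the 12 libraries (red above, blue below, saturating at 5) for the 5 markers, listed genes of thalamus, habenula, the Zic family and hypothalamus, and markers of granule cells and meninges. The column of LAC responder 1 is red for Tcf7l2, Slc17a6, Pmch, Shox2, Calb2 and Irx2 and blue for Prox1 and C1ql2, and the column of FSL vehicle 3 is red for the Zic genes and the meningeal markers.

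Zic1 followed another pattern. It was 6.62, 3.10 and 4.59 CPM in LAC responders, 5.15, 7.25 and 7.77 CPM in LAC non-responders, 9.25, 15.9 and 34.0 CPM in FSL vehicle and 4.89, 6.13 and 5.11 CPM in FRL vehicle. All 3 FSL vehicle libraries lay above the 9 others, and FSL vehicle 3 was the highest. The share of all genes with such a separation was not counted. Zic1 was picked from these levels, so nothing is read from it. The mean was 4.77 ± 1.77 CPM in LAC responders, 6.72 ± 1.39 CPM in LAC non-responders, 19.7 ± 12.8 CPM in FSL vehicle and 5.38 ± 0.664 CPM in FRL vehicle (SD, n = 3 each). The spread was widest in FSL vehicle.

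Zic2, Zic4 and Zic5 were highest in FSL vehicle 3 as well. Zic2 was 108 CPM there and 13.2 to 40.2 CPM in the other 11. Zic4 was 4.62 CPM against at most 2.32 CPM, and Zic5 10.2 CPM against at most 7.74 CPM. Zic1 and Zic4 are neighbours that overlap in the RefSeq annotation, and Zic5 lies next to Zic2. The strand setting of the counting is not stated, so Zic1 and Zic4 levels are uncertain to the extent that their reads overlap. Of these 3 other Zic genes 0 passed in edgeR in any comparison, and all 3 had an unadjusted p under 0.05 in LAC responder against FSL vehicle and in FSL vehicle against FRL vehicle, beside 13.8% and 13.9% of all tested genes. It was 2 in LAC non-responder against FSL vehicle and 1 in LAC responder against LAC non-responder, beside 4.21% and 3.14%. DESeq2 called Zic2 and Zic5 in LAC responder against FSL vehicle, beside 1.54% of all genes, and 0 of the 3 in the other 3 comparisons. The lists were chosen with earlier results of these data known, so nothing is read from these counts.

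Meningeal markers followed Zic1 at both ends of its range, but not throughout. The mean log2(CPM + 0.5) of the 12 tested meningeal and fibroblast markers was 4.57, 2.86 and 3.04 in LAC responders, 3.93, 5.56 and 5.51 in LAC non-responders, 3.87, 5.97 and 7.64 in FSL vehicle and 3.93, 4.61 and 3.35 in FRL vehicle. The highest and the lowest library of this mean, FSL vehicle 3 and LAC responder 2, were also those of Zic1. FSL vehicle 1 did not follow it: its meningeal mean of 3.87 lay below those of LAC responder 1, all LAC non-responders and FRL vehicle 1 and 2, while its Zic1 level of 9.25 CPM lay above all of theirs. Of the 14 listed meningeal genes, Col1a2 was 0 in every library although Col1a1 reached 379.5 CPM, so a 0 in these files is not read as absence. Igf2, a growth factor abundant in meninges, was 138, 324 and 1231 CPM in FSL vehicle and 73.3 to 146 CPM in FRL vehicle. How much of the Zic1 level comes from meninges was not tested.

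Prkcd was 18.0, 17.5 and 19.2 CPM in LAC responders, 20.6, 27.6 and 33.2 CPM in LAC non-responders, 40.4, 33.2 and 65.7 CPM in FSL vehicle and 22.9, 28.4 and 29.6 CPM in FRL vehicle. The 3 responders were the lowest 3 libraries of the 12 and lay within 17.5 to 19.2 CPM. How many of all genes set 1 group apart in this way was not counted, and nothing is read from it. FSL vehicle lay above FRL vehicle without overlap, as was so for 7.57% of all tested genes, while LAC non-responder 3 reached the level of FSL vehicle 2. LAC responder 2 and FSL vehicle 3, the lowest and the highest in Prkcd, were also those of the meningeal mean, and the part of meninges in the Prkcd level was not tested. LAC responder 1, with its peak of Tcf7l2, lay between the other 2 responders in Prkcd.

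Among other protein kinase C genes, Prkch, the eta isoform, was highest in FSL vehicle 3 too (17.8 CPM against 6.47 to 12.9 CPM). Prkcb, Prkce and Prkcz were lowest in FSL vehicle 3 (444, 276 and 149.9 CPM). Prkca, Prkcq and Prkci had neither their highest nor their lowest level in FSL vehicle 3.

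Pmch was a gene of few counts. LAC responders had 77, 23 and 3 counts (9.43, 2.85 and 0.405 CPM), LAC non-responders 1, 1 and 0, FSL vehicle 12, 4 and 15 and FRL vehicle 3, 2 and 0. LAC responders 1 and 2 were the highest 2 libraries, FSL vehicle 3 and 1 came next, and 5 of the 6 LAC non-responder and FRL vehicle libraries had fewer than 3 counts. Summed over libraries, LAC responders had 103 counts and LAC non-responders 2, a ratio of 48.4 on library size (95% exact interval 13.1 to 405). Without LAC responder 1 it was 26 counts against 2, a ratio of 18.7 (4.68 to 162). Against the 31 counts of FSL vehicle, LAC responders had a ratio of 2.96 (1.96 to 4.58), and 1.14 (0.651 to 1.99) without LAC responder 1. FSL vehicle had 31 counts and FRL vehicle 5, a ratio of 6.22 (2.4 to 20.5). These intervals cover counting error only and not the spread between rats.

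Of the 14 other hypothalamic peptide genes in the files, 4 were highest in LAC responder 1, namely Hcrt, Trh, Ghrh and Tac3, beside 12.3% of all genes with a count. Only 3 of the 14 passed the expression filter. The list was chosen with earlier results of these data known, so nothing is read from this count. Hcrt, which encodes the orexins of the same hypothalamic field, had 6, 4 and 0 counts in LAC responders and at most 1 in any other library. Ghrh was 0.735 CPM in LAC responder 1 and at most 0.496 CPM elsewhere. Cartpt, Pomc, Avp and Tac3, the peptide genes with the highest mean levels, were 3.06, 1.84, 0.980 and 7.35 CPM in LAC responder 1. For all but Tac3 these values lay inside the range of the other 11 libraries, and Tac3 was 2.38 to 6.22 CPM in them. Otp, Hmx2, Hmx3 and Bsx, hypothalamic transcription factors, and the peptide gene Qrfp were 0 in all 12 libraries. Sim1, which marks the paraventricular nucleus, was 5.88 CPM in FSL vehicle 3 and 0 to 1.32 CPM elsewhere, and it stood apart there. Nkx2-2, Tbx3 and Nkx2-1 reached at most 3.25, 3.78 and 1.13 CPM. Lmx1a was 10.0 CPM in LAC non-responder 1 and 7.79 CPM in FSL vehicle 1, the 2 libraries with the highest sums of choroid plexus markers. Mchr1, the MCH receptor of the rat, stayed within 12.3 to 19.2 CPM. Parpbp, which overlaps Pmch in the RefSeq annotation, was at most 0.560 CPM in any library.

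The comparisons of groups depended on which library was in them. Between LAC responders and FSL vehicle, Tcf7l2 had a log2 fold change of 1.82 ± 0.96 (SE), and -1.04 ± 0.39 without LAC responder 1. Slc17a6 had 1.27 ± 0.58, and 0.11 ± 0.37 without that library, and Pmch 1.49 ± 0.85, and 0.14 ± 0.80. Zic1 (-2.05 ± 0.43) and Prkcd (-1.35 ± 0.24) were lower in LAC responders and kept that sign without LAC responder 1 (-2.36 and -1.34). Without FSL vehicle 3 they had -1.41 and -1.02. Their groups did not overlap, as was so for 6.14% of all tested genes in that direction.

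LAC responders and LAC non-responders gave a similar dependence. Tcf7l2 had a log2 fold change of 2.26 ± 0.98, and -0.60 ± 0.39 without LAC responder 1, while Slc17a6 had 1.34 ± 0.58, and 0.18 ± 0.37. Pmch was higher in LAC responders with and without that library (5.32 ± 1.27 and 3.96 ± 1.15), although LAC non-responders were all under 3 counts, so the fitted value depends on the prior count and is no bound. Zic1 had -0.49 ± 0.44 and Prkcd -0.57 ± 0.24. Pmch was higher without overlap, as were 5.76% of all genes, and Prkcd lower without overlap, as were 5.54%.

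LAC non-responders against FSL vehicle shares FSL vehicle with 2 of the other comparisons. FSL vehicle levels entered the choice of the genes, which favours a lower value in any group set against them, so nothing is read from the direction here. Zic1 was 6.72 ± 1.39 CPM in LAC non-responders and 19.7 ± 12.8 CPM in FSL vehicle (SD, n = 3 each), with a log2 fold change of -1.55 ± 0.42 (SE). Prkcd was 27.1 ± 6.33 CPM in LAC non-responders and 46.4 ± 17.1 CPM in FSL vehicle, with -0.78 ± 0.24. Pmch had -3.83 ± 1.41, Tcf7l2 -0.44 ± 1.0 and Slc17a6 -0.07 ± 0.59. LAC non-responders had 2 Pmch counts in total, so the fitted Pmch value depends on the prior count and is no bound. All 5 log2 fold changes were negative, although that of Slc17a6 changed sign in 4 alternatives, and 48.9% of tested genes were positive. Zic1 and Pmch were lower without overlap, as were 3.11% of all genes. Without FSL vehicle 3 the Zic1 value was -0.90 and that of Prkcd -0.44.

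Between the lines, Zic1 had a log2 fold change of 1.87 ± 0.43 in FSL vehicle against FRL vehicle, and 1.23 without FSL vehicle 3. Prkcd had 0.78 ± 0.24 and 0.45, Pmch 2.60 ± 1.22, Tcf7l2 0.97 ± 1.03 and Slc17a6 0.24 ± 0.59. FRL vehicle had 5 Pmch counts in total, so the fitted Pmch value depends in part on the prior count. Of the 5, 4 were higher in FSL vehicle without overlap, as were 7.57% of all tested genes, and Slc17a6 overlapped. For Tcf7l2 the closest libraries of the 2 lines were nearly level, and for Pmch they lay near the limit of 3 counts. The genes were picked for such differences, so nothing is read from this count. The LAC groups are of the FSL line too, and their Zic1 means of 4.77 ± 1.77 CPM in LAC responders and 6.72 ± 1.39 CPM in LAC non-responders stood beside 5.38 ± 0.664 CPM in FRL vehicle.

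In the edgeR fit 0 of the 5 genes had an adjusted p under 0.05 in any of the 4 comparisons. An unadjusted p under 0.05 was seen for 2 in LAC responder against FSL vehicle, 3 in LAC non-responder against FSL vehicle, 2 in FSL vehicle against FRL vehicle and 4 in LAC responder against LAC non-responder, beside 13.8%, 4.21%, 13.9% and 3.14% of all tested genes. DESeq2 gave no adjusted p for Tcf7l2. Of the other 4 genes it called Zic1 and Prkcd in LAC responder against FSL vehicle, Zic1 in FSL vehicle against FRL vehicle and 0 in the other 2 comparisons, beside 1.54%, 1.43%, 0.017% and 0% of all genes. As the genes were chosen on these libraries, nothing is read from these counts.

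**Figure D4:**
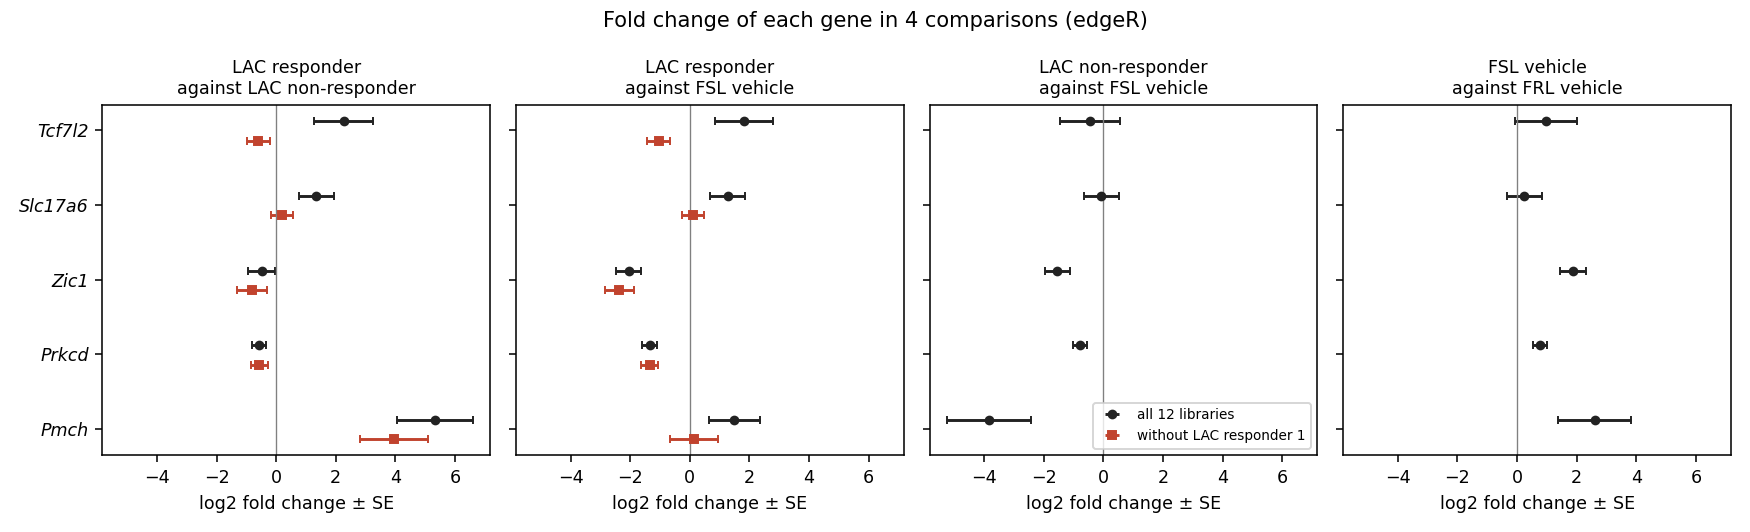
Log2 fold change ± SE of the 5 genes in 4 comparisons by edgeR, with all 12 libraries (black circles) and, for comparisons that hold LAC responders, without LAC responder 1 (red squares). The Tcf7l2 value in LAC responder against FSL vehicle is 1.82 with that library and -1.04 without it, while those of Zic1 and Prkcd stay on the same side of 0.

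Genes with the most similar pattern were found by Pearson's r of log2(CPM + 0.5) among 11750 tested genes, as a description over 12 libraries that were sequenced in 1 pool. For Tcf7l2 these were Nrg1 (0.970), Shox2 (0.969), Calb2 (0.962), Sema4g (0.948) and Gdpd2 (0.931), and for Slc17a6 Calb2 (0.946), Nrg1 (0.944), Slc6a11 (0.935), Shox2 (0.914) and Zfhx4 (0.912). Over the 11 libraries without LAC responder 1 none of the 5 stayed among the 5 most similar of either gene. Tcf7l2 then led with Zcchc7 (0.915), Qser1 (0.914), Tspan9 (0.911), Usp3 (0.903) and Inpp5e (0.894). Slc17a6 led with Nrg2 (0.954), Adam1a (0.952), Msi1 (0.947), Pcdhb21 (0.933) and Fam214a (0.921). Between Tcf7l2 and Slc17a6 themselves r was 0.910 over 12 libraries and 0.599 over 11. In the same order Tcf7l2 and Prkcd had 0.004 and 0.788, and Tcf7l2 and Zic1 0.23 and 0.638. Pmch had 0.723 and 0.271 with Tcf7l2, and 0.721 and 0.304 with Slc17a6.

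Zic1 was most similar to Fkbp10 (0.974), a collagen chaperone, Fhod1 (0.959), Frk (0.957), the adhesion molecule Vcam1 (0.954) and Pros1 (0.952), and 3 of these 5 stayed without LAC responder 1, joined by the matrix genes Mfap2 (0.958) and Hmcn1 (0.954). Prkcd was most similar to Col26a1 (0.935), a collagen, Afap1 (0.933), Lrch4 (0.921), Scarf1 (0.919) and Dap (0.919). Without LAC responder 1 its 5 were Afap1 (0.949), Slco4a1 (0.942), Lrch4 (0.942), Fhod1 (0.936) and Cpne3 (0.936). Zic1 and Prkcd had an r of 0.870 over 12 libraries and 0.912 over 11. Pmch was most similar to Tada2a (0.905), the choline transporter Slc5a7 (0.846), Nhs (0.840), Bex4 (0.831) and Doc2g (0.828). Over 11 libraries these were Akr1c12 (0.842), Mlxipl (0.839), Gps2 (0.834), Pcid2 (0.831) and Tada2a (0.816). Most Pmch counts were low, as given above.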

How the data were processed

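The 12 libraries were stranded total RNA with ribosomal RNA removed, read as single 100-base reads, per the labels' protocols and the series' design text. Each deposited file gives raw counts for 17172 gene symbols and 5 summary lines. The submitters' processing notes name the build rn5 and the tools HTSeq 0.6.1, TopHat2 2.0.9, Trimmomatic 0.33, FastQC 0.11.3 and edgeR 3.12.0, while no annotation or strand setting is stated. The summary lines (no gene 47.7% to 52.7%, ambiguous 0.0756% to 0.106%, several alignments 24.3% to 28.4% of reads) entered neither library sizes nor tests.

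Tests used edgeR 4.0.16 in R 4.3.3: TMM, the default expression filter on groups (11750 genes kept, all 5 markers among them), a robust quasi-likelihood fit of 12 libraries with 1 mean per group, two-sided, Benjamini-Hochberg adjustment over all tested genes and a threshold of 0.05. Alternatives were DESeq2 1.42.0, other scalings, no filter, a block for the replicate number, a fit of only the groups compared, and leaving out each library. Same-numbered libraries of LAC non-responder and FSL vehicle deviated together (correlations 0.578, 0.203 and 0.425), although the labels name no pairing. The cause of this was not tested. For LAC non-responder and FRL vehicle the correlations were 0.189, 0.267 and 0.006, and any other 2 groups had at least 1 negative value. The main fit and its SEs used no pairs, and the replicate number entered only as a block in the alternatives. Within groups no 2 libraries agreed within sampling noise. RefSeq tables of GRCr8 gave neighbouring genes and promoters; 3 of the 5 markers, Tcf7l2, Slc17a6 and Prkcd, matched a promoter, and Zic1 and Pmch did not.

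Markers and lists were chosen with earlier results of these data known. By the naming rule every marker was given in every library, with list members that stood apart in 1 library, those past the threshold and up to 4 more of high mean level; families were given with their members, apart from some items that are not reported here. Names beyond it, among them Lhx9, Gbx2, Gpr151, Hcrt, Trh, Ghrh, Penk and the genes in the closing section, were chosen after their values were seen.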

Additional observations from a re-analysis of the deposited data

How the results depend on the processing

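Over 20 fold changes (5 genes in 4 comparisons) and 241 alternative values, 225 kept their sign and their side of the threshold, 4 (Tcf7l2 in DESeq2) kept their sign and had no adjusted p, 6 passed it newly and 6 changed sign. With 1 library left out, Tcf7l2 in LAC responders spanned -1.04 to 2.32 against FSL vehicle and -0.60 to 2.76 against LAC non-responders, the lowest values being those without LAC responder 1. Slc17a6 in LAC non-responders against FSL vehicle, -0.07, spanned -0.35 to 0.15 with 1 library left out and changed sign to 0.15 and 0.04 without FSL vehicle 1 and 3, to 0.14 without LAC non-responder 1 and to 0.06 with the replicate block; the cause was not tested. The 6 that newly passed were Zic1 in FSL vehicle against FRL vehicle, and Zic1 and Prkcd in LAC responders against FSL vehicle, each with DESeq2 and without FSL vehicle 1. The 8 genes called between FSL vehicle and FRL vehicle became 168 with DESeq2, 4 with the replicate block, 2 in the compared groups only and 2 to 271 with 1 library left out (271 without FSL vehicle 1, and 3, 2 and 5 without FRL vehicle 1, 2 and 3). The 0 genes called in LAC responders against FSL vehicle became 181 with DESeq2 and 0 to 349 with 1 library left out (349 without FSL vehicle 1). The 0 in LAC non-responders against FSL vehicle became 2 with DESeq2. The replicate block changed no other count. Same-numbered libraries of other groups had correlations of deviations from -0.336 to 0.267. Genes standing apart in LAC responder 1 were 78 at 2-fold (3 of the 5 markers), 14 at 5-fold (1 marker) and 20 among tested genes. The last setting was chosen after seeing the data, as was a replicate block fitted to LAC non-responders and FSL vehicle alone, which called 0 genes. Of the 5 most similar genes, Spearman's rho kept 0 for Tcf7l2, 0 for Slc17a6, 1 for Zic1, 1 for Prkcd and 2 for Pmch; leaving out LAC responder 1 kept 0, 0, 3, 2 and 1. The 20 group means moved by less than 1 SD under other scalings. Pmch fell below the expression filter, and gave no value, in fits of the compared groups only for all comparisons but LAC responder against FSL vehicle. Depth limits Pmch most, with 0 to 3 counts in LAC non-responder and FRL vehicle libraries.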

Other observations

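Some of the 35 genes that stood apart in LAC responder 1 are given here as single values, picked after those values were seen and standing for no group of genes. Tfap2d, a transcription factor, was 16.3 CPM in LAC responder 1 and at most 0.774 CPM in any other library. Pou4f2, a POU factor of retinal and midbrain neurons, was 5.64 against at most 0.141 CPM, and En2, a homeobox gene of the midbrain and cerebellum, was 5.88 against at most 0.560 CPM. Sox14 (3.31 against at most 0.280 CPM), Irx5 (1.96 against at most 0.162 CPM) and Ebf3 (16.7 against at most 1.68 CPM) had the same pattern. Of the midbrain monoamine genes, Slc6a3, the dopamine transporter, had 0 counts in that library, and Tph2, an enzyme of serotonin synthesis, was 1.84 CPM against 0.280 to 1.80 CPM. Slc6a3 was seen in LAC non-responder 2 (8.04 CPM) and FRL vehicle 3 (5.28 CPM), and at most 0.280 CPM in the other 10 libraries.

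Glra1, a glycine receptor subunit of brainstem and spinal cord, was 8.09 CPM in LAC responder 1 against at most 1.53 CPM, Oprk1, the kappa opioid receptor, 8.21 against at most 1.73 CPM and Galr1, a galanin receptor, 8.58 against at most 1.95 CPM. Chrnb3, a nicotinic receptor subunit listed for the habenula, was 2.33, 0.248 and 0 CPM in LAC responders and 1.14, 12.6 and 26.3 CPM in FSL vehicle, and like Zic1 it was highest in FSL vehicle 3. These are levels of single libraries, with no test.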
